A study of Mus musculus with 1 sample.

Results

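Cybb, Cyba, Ncf1, Ncf4 and Rac2, subunits of the phagocyte NADPH oxidase, were followed through the progenitors of control mouse bone marrow. They were taken by gene symbol, 5 of the 32285 genes in a single-cell UMI matrix, with no measured value used. The phagocyte oxidase is the enzyme with which neutrophils and macrophages make superoxide against microbes. Its membrane core, cytochrome b558, pairs gp91phox, the catalytic subunit encoded by Cybb, with p22phox, the partner encoded by Cyba that stabilises it. In resting cells p47phox, the organiser encoded by Ncf1, and p40phox, encoded by Ncf4, stay in the cytosol, and on stimulation they move to the membrane, where the GTPase Rac2 joins the complex. Loss of Cybb, Cyba, Ncf1 or Ncf4 is known to cause forms of chronic granulomatous disease in humans.

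The study asked how loss of BRD9, a bromodomain subunit of the non-canonical BAF chromatin remodelling complex, affects blood formation, and these are its control cells. The library holds Lin- cKit+ cells from femora and tibiae of C57BL/6 mice whose floxed Brd9 gene (Brd9fl/fl) stayed intact for want of the Mx1-Cre driver. The controls had also received pIpC, an RNA analogue known to induce interferon, at 20 mg/kg every other day for 3 doses, and cells were prepared 8 weeks later. The sample label describes CD45.2(+) Brd9fl/fl donor cells in CD45.1(+) CD45.2(-) recipients dosed 4 weeks after transplantation, whereas the series text describes primary mice dosed 4 weeks after birth. In the paper the single-cell libraries stand within the work on primary mice, 8 weeks after deletion, and no transplant is named for them. The conflict with the sample label could not be resolved, and the number of animals behind the library is not given. With 1 library there is no replicate error and no test. Every interval below is a 95% counting interval, exact Poisson for a level, exact binomial for a share or a ratio, and covers counting error only.

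Cells were assigned to gates by marker genes that include none of the 5 subunits. Each cell was thinned at random to 5000 UMIs and placed in the list of which it showed most genes, at least 3 and more than of any other list. Of 7645 cells kept, 1508 fell in the stem gate, 494 in the neutrophil, 1959 in the monocyte, 170 in the dendritic and 462 in the basophil-mast gate. A further 1305 erythroid cells, which should lack the oxidase, serve as the background for free RNA, and 140 megakaryocyte, 39 lymphoid and 9 eosinophil cells were also gated. Median depth ran from 10392 UMIs in the stem gate to 32001 in the erythroid gate. Among the gates of at least 50 cells, and of its own list, the neutrophil gate had 10 of 12 genes at their highest, the monocyte gate 8 of 12, the dendritic gate 15 of 15, the basophil-mast gate 10 of 11 and the stem gate 11 of 12. The neutrophil gate is one of immature cells: Ltf, a product of late granules, was at 0 UMIs and Ly6g at 1 UMI there. Doublet calls made up 0.81% of the neutrophil gate and 3.37% of the monocyte gate, against 7.65% of the dendritic and 8.23% of the basophil-mast gate.

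RefSeq promoters were held for 3 of the 5 genes, and the 250 bases before each start are shown because these genes share the gates in which they were higher and differ in how much. Capitals mark GGAA, the short core bound by ETS factors such as PU.1 (the product of Spi1), and CCAAT, on either strand. The windows are chrX:9469325-9469574 for Cybb, chr8:122432941-122433190 for Cyba and chr5:134229626-134229875 for Ncf1, all on the minus strand of GRCm38.p6 and printed in the direction of the gene.
Cybb: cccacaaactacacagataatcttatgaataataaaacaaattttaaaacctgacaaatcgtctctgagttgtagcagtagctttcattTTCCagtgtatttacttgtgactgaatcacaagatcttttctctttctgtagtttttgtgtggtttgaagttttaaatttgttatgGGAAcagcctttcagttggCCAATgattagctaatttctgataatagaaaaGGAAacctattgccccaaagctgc
Cyba: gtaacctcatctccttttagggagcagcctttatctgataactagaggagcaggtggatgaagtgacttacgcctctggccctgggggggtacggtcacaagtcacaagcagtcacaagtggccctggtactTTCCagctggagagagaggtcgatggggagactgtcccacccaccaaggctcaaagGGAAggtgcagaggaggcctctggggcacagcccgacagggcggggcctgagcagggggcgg
Ncf1: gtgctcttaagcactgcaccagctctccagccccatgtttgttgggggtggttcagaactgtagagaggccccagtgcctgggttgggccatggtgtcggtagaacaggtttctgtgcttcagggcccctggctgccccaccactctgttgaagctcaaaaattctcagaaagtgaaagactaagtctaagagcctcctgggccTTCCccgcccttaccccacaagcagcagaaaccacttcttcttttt
The 3 windows differ in base content, with 34% G and C in Cybb against 60% in Cyba and 54.4% in Ncf1. GGAA occurred 3 times in Cybb, 2 times in Cyba and 1 time in Ncf1, and 93.5% of all 32851 promoter windows in the table hold it at least once. CCAAT occurred 1 time, in Cybb, 56 to 52 bases before the start, and 33.9% of all windows hold it. Longer words searched first on both strands, GAGGAA (in 23.3% of windows), GGAAGT (19.7%) and TTGCNNAA, a C/EBP word (9.56%), had no match in these 3 windows, and the shorter words were added after that. A match is a string of letters and not a bound site.

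The genes lie apart in the genome (GRCm38, GENCODE): Cybb at chrX:9435252-9487771, Cyba at chr8:122424776-122432930, Ncf1 at chr5:134220053-134229625, Ncf4 at chr15:78244801-78262580 and Rac2 at chr15:78559167-78572783. All 5 are protein coding, Ncf4 on the plus strand and the others on the minus strand. Ncf1 shares 4303 bases of its 3′ end with Gtf2ird2, which runs on the opposite strand and held 807 UMIs over all barcodes.

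All 5 subunits were at least 2-fold higher in the neutrophil and monocyte gates than in the stem gate, and 4 of 5 were in the dendritic gate, with Rac2 at 1.96-fold. The basophil-mast count was also 5, but it includes Cybb, whose level there was close to the erythroid background. The 5 subunits did not follow 1 pattern. Cybb was high in the monocyte gate and over 2-fold lower in the other 4 main gates, Cyba, Ncf1 and Ncf4 differed by less than 2-fold among the neutrophil, monocyte and dendritic gates, and Cyba and Rac2 were already abundant in the stem gate. Levels are UMIs per 1000000 UMIs of the gate (CPM). The share of all genes at least 2-fold higher than in the stem gate was 4.54% of 11553 for the neutrophil gate, 6.97% of 12314 for the monocyte gate, 6.26% of 11441 for the dendritic gate and 5.43% of 11590 for the basophil-mast gate, among genes with at least 50 UMIs in the 2 gates together. Cybb fell under that minimum in the dendritic and basophil-mast comparisons and is counted there by its fold alone. The median fold of the 5 subunits was 7.64 in the neutrophil gate, where the median gene was at 0.601, 9.50 against 0.765 in the monocyte gate, 7.02 against 0.836 in the dendritic gate and 2.79 against 0.828 in the basophil-mast gate. Relative to the median gene every fold over the stem gate was therefore larger than printed, and Rac2 in the dendritic gate was then at 2.35.

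**Figure D1:**
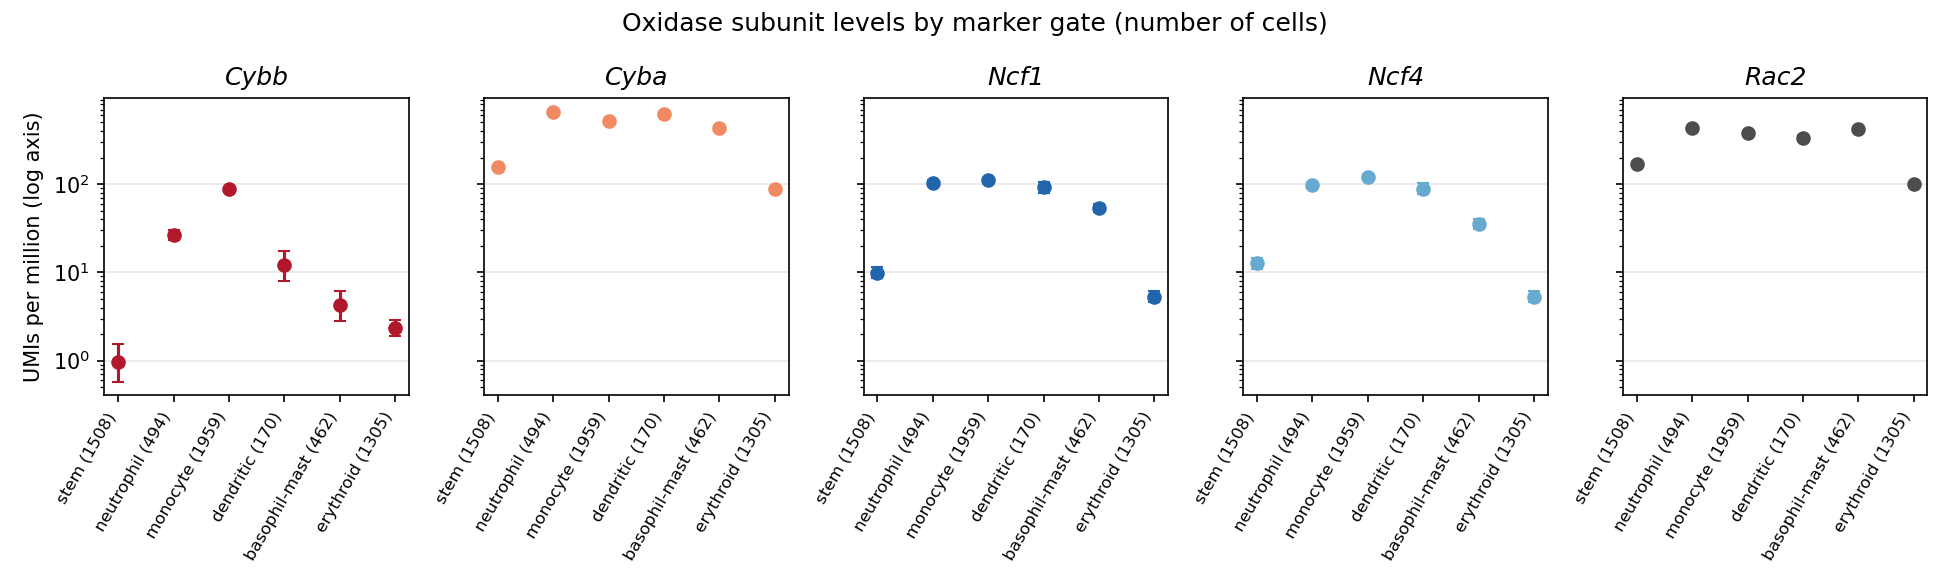
Levels of the 5 subunits by marker gate, in CPM on a log axis, with the number of cells of each gate in parentheses; points are sums over the cells of a gate and bars are 95% Poisson intervals, hidden behind the point where narrow. Cybb stands at 87.7 CPM in the monocyte gate and at 26.5 or less in the others drawn, while Cyba and Rac2 are above 85 CPM in all 6.

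Cybb, the catalytic subunit, had 3757 UMIs in the monocyte gate, 265 in the neutrophil gate, 27 in the dendritic gate, 29 in the basophil-mast gate, 93 in the erythroid gate and 18 in the stem gate. Its level was 87.7 CPM in the monocyte gate (84.9 to 90.5) and 26.5 in the neutrophil gate (23.4 to 29.9). It was 11.98 in the dendritic gate (7.90 to 17.4), 4.23 in the basophil-mast gate (2.83 to 6.08) and 2.33 in the erythroid gate (1.88 to 2.86). In the stem gate it was 0.977 CPM (0.579 to 1.54), and no UMI was seen in the megakaryocyte gate, which allows up to 1.18 CPM. In this order the basophil-mast and erythroid intervals overlapped, as did the stem and megakaryocyte ones, and the other neighbours were apart. The 9 eosinophil cells gave 66.5 CPM on 7 UMIs (26.7 to 137), an interval that holds the monocyte level. Against the stem gate the fold was 89.8 (56.7 to 152) in the monocyte gate and 27.1 (16.8 to 46.4) in the neutrophil gate. The stem-gate level lay below that of the erythroid background, so these folds are ratios to a background level. Against the erythroid gate the folds were 37.6 (30.6 to 46.7) and 11.3 (8.92 to 14.5).

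The erythroid gate shows how much of a low Cybb level could be free RNA. It held 2.66% of the monocyte-gate Cybb level, and for products of other cells the same share was 3.27% for Ly6c2, 2.31% for F13a1, 2.55% for Ms4a6c, 2.10% for Elane, 2.66% for Prtn3, 2.77% for Ctsg and 3.60% for Mpo. It was lower for Irf8 (1.35%), S100a8 (0.632%), Mcpt8 (0.154%) and Prss34 (0.0932%). The Cybb share of the erythroid gate lay among the higher of these 11 myeloid products. The stem gate, at 0.419 times the erythroid gate (0.238 to 0.698), was below that background. No Cybb expression above it was detectable in stem-gate cells at this depth. How much of the erythroid Cybb level is free RNA was not tested. The basophil-mast gate was 1.81 times the erythroid gate (1.15 to 2.78). Without doublet calls, which left 47 of the 93 erythroid Cybb UMIs, the basophil-mast gate had 2.17 CPM and the erythroid gate 1.25, a ratio of 1.74 whose interval (0.862 to 3.26) held 1. The dendritic gate then had 10.9 CPM and the stem gate 0.561, at 0.448 times the erythroid gate (0.202 to 0.899).

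In the dendritic gate the 27 Cybb UMIs came from 10 of 170 cells, and 9 of them came from 1 cell. By genes of the list that mark plasmacytoid cells (Siglech, Cox6a2, Ccr9, Klk1 and Spib), a split chosen after the values were seen, 40 cells with such a gene held 17 Cybb UMIs and the 130 others held 10. That is 31.4 CPM (18.3 to 50.3) against 5.84 (2.80 to 10.7). The cell with 9 of the UMIs lies in 1 of these subsets, whose level therefore rests in large part on that cell. The other subunits differed between these subsets too, in both directions. Cyba was at 421 against 695 CPM and Ncf4 at 53.6 against 99.9, whereas Ncf1 was at 120.1 against 83.5 and Rac2 at 482 against 287. Median depth was 12312 UMIs in both. The lymphoid gate gave 26.5 CPM of Cybb, of which 11 of 14 UMIs lay in 1 cell.

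Cyba, the membrane partner, was far more evenly spread. It was at 649.9 CPM in the neutrophil gate (634 to 666) and 629 in the dendritic gate (597 to 663), which overlapped, then at 518 in the monocyte gate (511 to 525) and 436 in the basophil-mast gate (420.4 to 452). The megakaryocyte gate had 206 CPM (188 to 224), the lymphoid gate 178 (144 to 217), the stem gate 158 (152 to 164) and the erythroid gate 87.2 (84.3 to 90.1). The megakaryocyte and lymphoid gates overlapped, as did the lymphoid and stem gates. The neutrophil gate was 4.12-fold above the stem gate (3.94 to 4.30), the dendritic gate 3.98-fold, the monocyte gate 3.28-fold and the basophil-mast gate 2.76-fold. The erythroid gate held 13.4% of the highest level, above the 0.0932% to 3.60% of the myeloid products.

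The UMIs of the cytochrome partners stood in different proportions from gate to gate. For each Cybb UMI there were 5.91 Cyba UMIs in the monocyte gate (5.71 to 6.12), 24.6 in the neutrophil gate (21.7 to 27.9), 52.5 in the dendritic gate (35.9 to 79.98), 103 in the basophil-mast gate (71.6 to 154) and 162 in the stem gate (102 to 273). Cybb in the stem gate was below the erythroid level taken as background and in the basophil-mast gate close to it. These last 2 ratios are therefore not read as proportions within such cells. Without doublet calls they were 204 (119 to 383) in the basophil-mast and 275 (149 to 573) in the stem gate. UMIs count 3′ ends, so these ratios need no correction for gene length, but the capture of the 2 mRNAs may differ and only the change between gates is read.

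**Figure D2:**
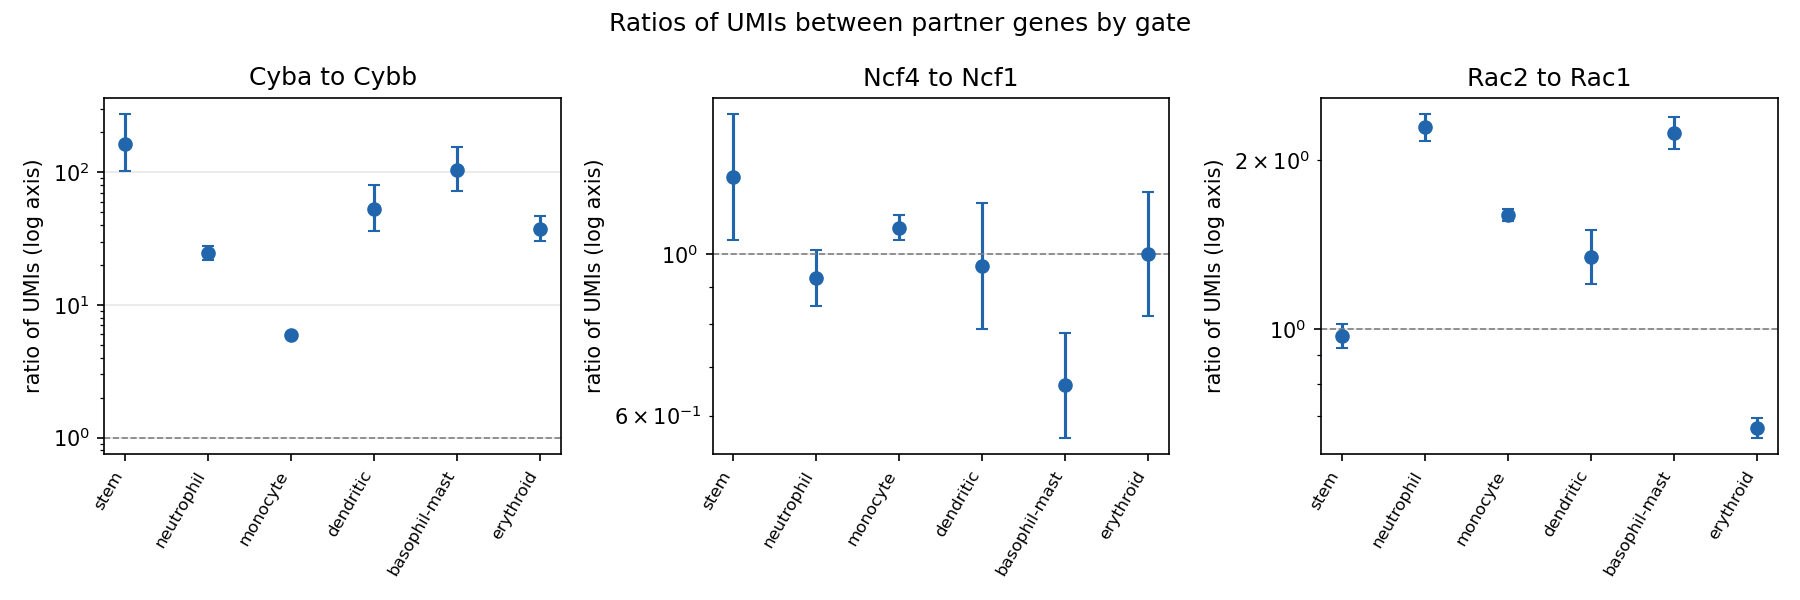
Ratios of summed UMIs between partner genes in 6 gates on log axes whose scales differ, with 95% exact intervals and a dashed line at a ratio of 1. Cyba to Cybb runs from 5.91 in the monocyte gate to 162 in the stem gate, Ncf4 to Ncf1 stays between 0.661 and 1.27, and Rac2 to Rac1 runs from 0.668 in the erythroid gate to 2.29 in the neutrophil gate.

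Ncf1 and Ncf4, the cytosolic organiser and its p40phox partner, moved alike. Ncf1 was at 111 CPM in the monocyte gate (108 to 114), 104 in the neutrophil gate (98.1 to 111), 92.3 in the dendritic gate (80.2 to 106) and 53.4 in the basophil-mast gate (48.1 to 59.2). It was at 15.3 in the megakaryocyte gate (10.9 to 21.0), 9.93 in the stem gate (8.55 to 11.5) and 5.32 in the erythroid gate (4.63 to 6.09). Of these, the monocyte and neutrophil, the neutrophil and dendritic, and the megakaryocyte and stem gates overlapped. Ncf4 was at 120.2 CPM in the monocyte gate (117 to 124), 96.7 in the neutrophil gate (90.7 to 103), 88.7 in the dendritic gate (76.9 to 102), 35.3 in the basophil-mast gate (31.0 to 40.1), 12.7 in the stem gate (11.1 to 14.4), 8.25 in the megakaryocyte gate (5.11 to 12.6) and 5.32 in the erythroid gate (4.63 to 6.09). Here the neutrophil and dendritic, the stem and megakaryocyte, and the megakaryocyte and erythroid gates overlapped.

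Over the stem gate, Ncf1 was 10.5-fold higher in the neutrophil gate (8.97 to 12.4) and 11.2-fold in the monocyte gate (9.62 to 12.99), against 5.38-fold in the basophil-mast gate (4.49 to 6.46). Ncf4 was 7.64-fold higher in the neutrophil gate (6.62 to 8.86), 9.50-fold in the monocyte gate (8.33 to 10.9) and 2.79-fold in the basophil-mast gate (2.32 to 3.36). With graph clusters in place of gates, the basophil-mast fold of Ncf4 was 1.65 and no longer reached 2. The ratio of Ncf4 to Ncf1 UMIs was 0.661 in the basophil-mast gate (0.560 to 0.780) and 1.27 in the stem gate (1.05 to 1.55), with the neutrophil gate at 0.926, the dendritic gate at 0.962 and the monocyte gate at 1.09. In the 39 cells of the lymphoid gate Ncf1 stood at 92.6 CPM (68.5 to 122) and Ncf4 at 85.0 (62.0 to 114), within the intervals of the dendritic gate, while Cyba was not above the stem gate there (1.12-fold, 0.906 to 1.38).

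Rac2, the blood-cell Rac GTPase, had the smallest fold over the stem gate of the 5 in each of the 4 gates. It was at 434 CPM in the neutrophil gate (421 to 447) and 420.4 in the basophil-mast gate (405 to 436), which overlapped. The monocyte gate had 380.4 CPM (375 to 386), the dendritic gate 334 (311 to 359), the lymphoid gate 323 (276 to 375), the stem gate 170.4 (165 to 177), the megakaryocyte gate 125 (112 to 140) and the erythroid gate 99.5 (96.4 to 103). The dendritic and lymphoid gates overlapped, and the lymphoid interval also reached into that of the monocyte gate. Over the stem gate the fold was 2.55 in the neutrophil gate (2.43 to 2.67), 2.47 in the basophil-mast gate, 2.23 in the monocyte gate and 1.96 in the dendritic gate (1.81 to 2.12). The erythroid gate held 22.9% of the neutrophil-gate level, also above that range. The erythroid shares of Ncf1, 4.81%, and Ncf4, 4.43%, lay just above it. With clusters in place of gates the monocyte fold was 1.94.

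Rac1, the Rac that most tissues use, stayed within 2-fold in these gates, at 175 CPM in the stem gate, 189.6 in the neutrophil gate, 188 in the basophil-mast gate, 238 in the monocyte gate and 249 in the dendritic gate. For each Rac1 UMI there were 0.972 Rac2 UMIs in the stem gate (0.925 to 1.02), 2.29 in the neutrophil gate (2.17 to 2.42), 2.24 in the basophil-mast gate (2.09 to 2.39), 1.60 in the monocyte gate (1.56 to 1.64), 1.34 in the dendritic gate (1.20 to 1.503) and 0.668 in the erythroid gate (0.642 to 0.696). Rac3, the third Rac, was under 1 CPM in all 5 main gates.

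Set against each other, the neutrophil and monocyte gates differed at least 2-fold in 1 of the 5 subunits, Cybb, where 17.2% of 11217 genes did so in either direction. Cybb in the neutrophil gate was at 0.302 of the monocyte gate (0.265 to 0.342). Cyba was 1.25-fold higher in the neutrophil gate (1.22 to 1.29) and Rac2 1.14-fold (1.10 to 1.18), Ncf4 was at 0.804 (0.750 to 0.862), and the interval of Ncf1, 0.943 (0.881 to 1.008), held 1. The median gene was at 0.827 in this comparison. A further 39 cells that tied between the neutrophil and monocyte lists lay between both gates in Cybb, at 61.6 CPM (46.3 to 80.4).

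Within single cells, subunits were counted after thinning to 5000 UMIs, so that deep and shallow gates compare. A Cybb UMI was seen in 32.1% of monocyte-gate cells (30.0 to 34.2) and 11.9% of neutrophil-gate cells (9.22 to 15.1), against 3.53% of dendritic, 1.73% of basophil-mast, 1.23% of erythroid and 0.332% of stem-gate cells. Unthinned, the shares were 66.2% of monocyte-gate and 30.4% of neutrophil-gate cells. The basophil-mast share (0.751 to 3.38) was not distinguishable from the erythroid one (0.702 to 1.98), and the dendritic interval (1.31 to 7.52) also reached into it. Cyba was seen in 94.5% of neutrophil-gate, 87.9% of monocyte-gate and 52.7% of stem-gate cells, and in 30.4% of erythroid cells. Ncf1 was seen in 42.3% of monocyte-gate, 39.5% of neutrophil-gate, 34.7% of dendritic, 22.5% of basophil-mast, 4.24% of stem-gate and 3.14% of erythroid cells. The stem-gate share of Ncf1 (3.28 to 5.39) overlapped the erythroid one (2.26 to 4.24).

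At least 3 of the 5 subunits were seen in 63.3% of monocyte-gate cells (61.1 to 65.4), 57.9% of neutrophil-gate cells (53.4 to 62.3) and 49.4% of dendritic cells (41.7 to 57.2). The share was 27.7% in the basophil-mast gate (23.7 to 32.0), 3.91% in the stem gate (2.99 to 5.02) and 2.45% in the erythroid gate (1.68 to 3.44). All 5 were seen together in 123 monocyte-gate cells, or 6.28% (5.25 to 7.45), in 10 neutrophil-gate cells, or 2.02% (0.975 to 3.69), and in 1 erythroid cell. None of the 1508 stem, 170 dendritic or 462 basophil-mast cells showed all 5. Of the cells with a Cybb UMI, 578 of 628 in the monocyte gate and 58 of 59 in the neutrophil gate also had a Cyba UMI. Of the cells with a Cyba UMI, 33.6% in the monocyte gate and 12.4% in the neutrophil gate had a Cybb UMI, beside 32.1% and 11.9% of all cells. Whether the partners go together beyond these shares was not tested.

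**Figure D3:**
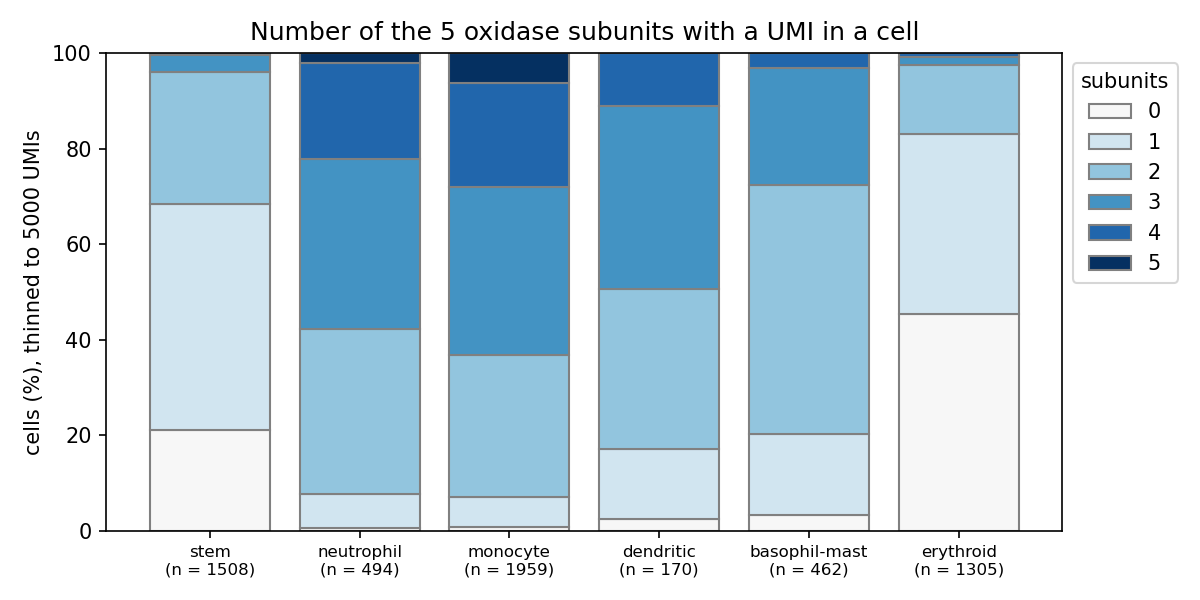
Share of cells of each gate, in percent, with UMIs of 0 to 5 of the subunits after each cell was thinned to 5000 UMIs; darker parts of a bar are more subunits and n is the number of cells. At least 3 subunits are seen in 63.3% of monocyte-gate and 57.9% of neutrophil-gate cells, against 3.91% of stem-gate and 2.45% of erythroid cells.

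The monocyte gate was then divided by 4 of its later genes, Fn1, Tgfbi, F13a1 and Ccr2, by how many had a UMI in the thinned cell. With 0, 1, 2, 3 and 4 of them, in 163, 828, 773, 164 and 31 cells, Cybb was at 45.3, 67.7, 97.6, 167 and 248 CPM. Each step was beyond the counting intervals. Ncf4 went from 79.4 over 106, 129.7 and 179.6 to 204 CPM and Cyba from 421 over 463, 545 and 743 to 830 (757.9 to 906), with overlap only at the last step of each. Ncf1 went from 98.4 to 155 CPM in smaller steps. Rac2 showed no such order, at 406, 369.5, 385, 384 and 425 CPM. Spi1, the gene of PU.1, went from 223 to 373 CPM along the same cells, and Elane, an azurophil granule protease of neutrophil precursors, from 4719 to 1531. The share of thinned cells with an Elane UMI went the other way, from 69.3% to 96.8%.

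Comparing the 195 cells with 3 or 4 of these genes with the 991 cells with 0 or 1, Cybb was 2.80-fold higher (2.56 to 3.07), the one subunit of 5 past 2-fold, where 3.4% of 10375 genes were at least 2-fold higher. Ncf4 was 1.80-fold higher (1.65 to 1.96), Cyba 1.66-fold (1.59 to 1.73) and Ncf1 1.33-fold (1.21 to 1.46), and the interval of Rac2, 1.04 (0.983 to 1.10), held 1. Median depth was 20010 UMIs in the later and 21965 in the earlier cells, and the median gene was at 1.02.

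The neutrophil gate could be divided only over a short span. Its 160 cells with a UMI of Camp, Ngp, Ltf or Lcn2, genes of later granules, were compared with the 334 cells with none. The fold was 1.12 for Cybb (0.857 to 1.44), 1.04 for Cyba (0.985 to 1.09), 0.939 for Ncf1 (0.821 to 1.07), 1.004 for Ncf4 (0.875 to 1.15) and 0.947 for Rac2 (0.888 to 1.01). The intervals of all 5 held 1. The split hardly separated these cells in Elane, at 15460 against 16373 CPM, or in Mpo, at 7545 against 7576 CPM, and Lcn2, which held most of the UMIs of these genes, was as high in the basophil-mast gate (47.4 CPM) as in the neutrophil gate (48.3 CPM).

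Inside the stem gate, divided after the values were seen by the number of its 12 markers with a UMI, the cytosolic subunits were lower where more markers were present. With 3 or 4 markers (691 cells), 5 or 6 (536 cells) and 7 or more (281 cells), Ncf1 was at 14.3, 6.21 and 2.39 CPM and Ncf4 at 17.6, 8.28 and 4.77 CPM. The fold of the last over the first subset was 0.166 for Ncf1 (0.06004 to 0.372) and 0.272 for Ncf4 (0.138 to 0.487), on 6 and 12 UMIs. Cyba was at 159, 161 and 146 CPM, a fold of 0.920 whose interval held 1 (0.818 to 1.03), and Rac2 at 191, 148 and 148 CPM. Mpo, the myeloid peroxidase, stood at 477, 179 and 45.7 CPM and median depth at 12296, 9739 and 8104 UMIs in the same subsets. Their part in the Ncf1 and Ncf4 levels was not tested.

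**Figure D4:**
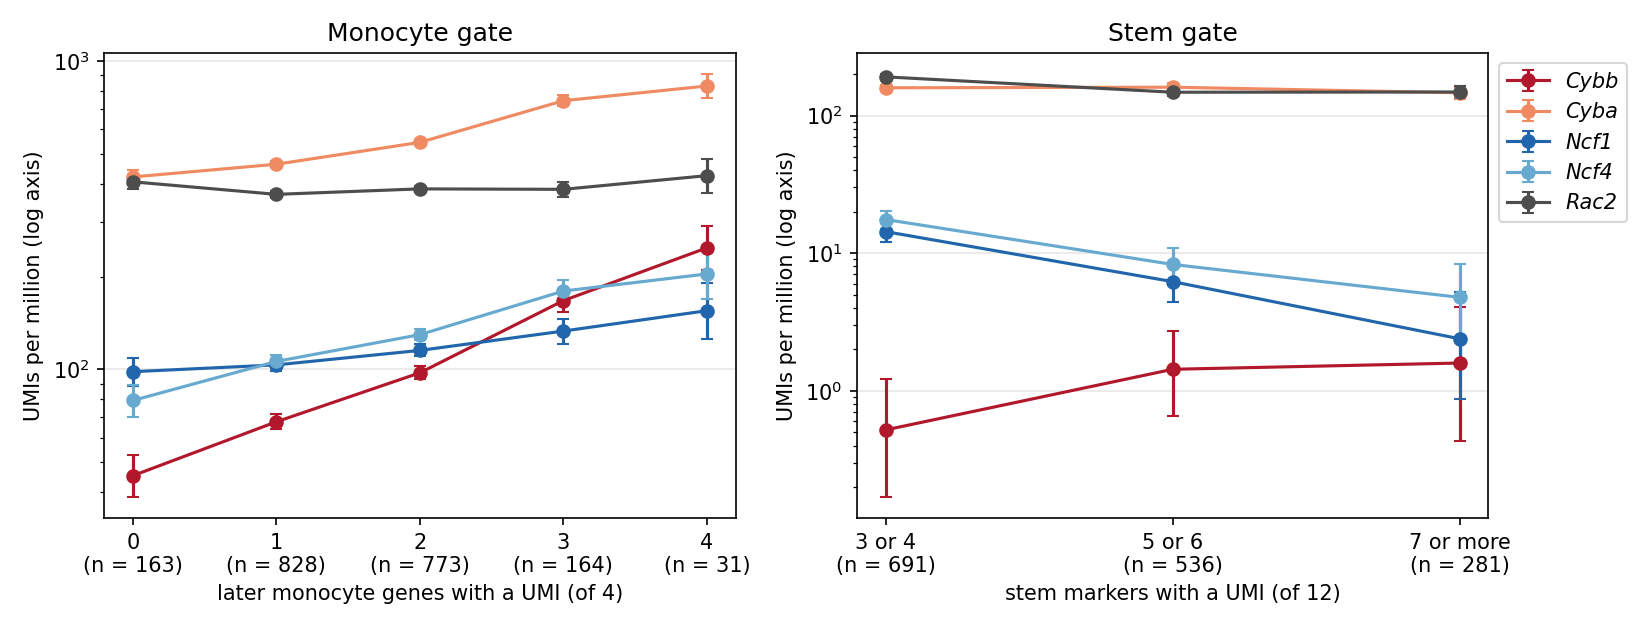
Levels of the 5 subunits inside the monocyte gate by the number of later monocyte genes seen (left) and inside the stem gate by the number of stem markers seen (right), in CPM on log axes with different scales; bars are 95% Poisson intervals and n is the number of cells. Cybb runs from 45.3 to 248 CPM on the left while Rac2 stays between 369.5 and 425, and on the right Ncf1 runs from 14.3 to 2.39 CPM while Cyba stays between 146 and 161.

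The wider oxidase pathway was read from a list of 58 regulators and relatives, of which 44 to 46 had enough UMIs in each comparison with the stem gate. In the neutrophil gate 14 of 44 were at least 2-fold higher and 10 at least 2-fold lower, in the monocyte gate 16 and 5 of 46, in the dendritic gate 13 and 1 of 45, and in the basophil-mast gate 15 and 6 of 44. Of all genes, 40.4% were at least 2-fold lower in the neutrophil gate, 26.9% in the monocyte, 18.6% in the dendritic and 19.2% in the basophil-mast gate, beside the shares of higher genes given above. In each gate the list's share of lower genes was below that of all genes. The largest fold was of Cebpe in the neutrophil gate, Irf8 in the monocyte and dendritic gates and Fcgr3 in the basophil-mast gate. Among 9 transcription factors known to act on the subunit genes, 5 were at least 2-fold higher in the neutrophil, 6 in the monocyte, 3 in the dendritic and 6 in the basophil-mast gate, where Irf8 counts at 2.36-fold and was at 0.846 (0.641 to 1.11) without doublet calls. Spi1 was at least 2-fold higher in all 4 gates, at 3.20 in the neutrophil (2.99 to 3.43), 3.89 in the monocyte (3.67 to 4.12), 3.60 in the dendritic (3.26 to 3.98) and 2.38 in the basophil-mast gate (2.19 to 2.58). Irf8, the factor of monocyte and dendritic fate, was 39.0-fold higher in the monocyte gate and 72.8-fold in the dendritic gate, and 1.04-fold in the neutrophil gate (0.870 to 1.24). Cebpe, a granulocyte factor that the neutrophil list itself holds, was 59.7-fold higher in the neutrophil gate and 3.57-fold in the monocyte gate. Cebpa was 18.4-fold higher in the basophil-mast gate, 5.82-fold in the monocyte gate and 4.43-fold in the neutrophil gate. At least 2-fold lower were 3 of the 9 in the neutrophil gate, 3 in the monocyte, 0 in the dendritic and 1 in the basophil-mast gate. Hoxa9, a stem and progenitor factor, was at 0.180 in the neutrophil, 0.160 in the monocyte and 0.325 in the basophil-mast gate. Elf1 was at 297 CPM in the stem, 100.4 in the neutrophil and 137 in the monocyte gate. Irf1 was at 41.25, 14.1 and 17.1 CPM in the same 3 gates.

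**Figure D5:**
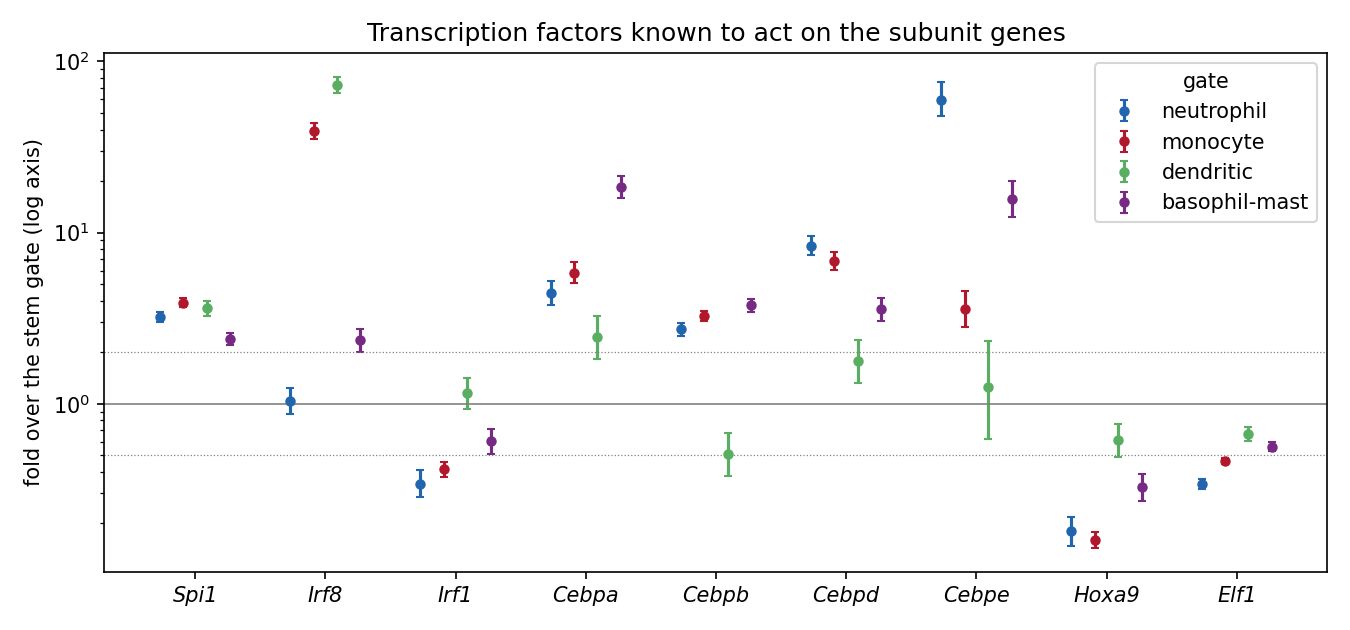
Fold over the stem gate of 9 transcription factors known to act on the subunit genes, on a log axis, for 4 gates; bars are 95% exact intervals, the solid line is a fold of 1 and the dotted lines are 2-fold either way. Spi1 lies between 2.38 and 3.89 in all 4 gates, whereas Irf8 reaches 72.8 in the dendritic gate and stands at 1.04 in the neutrophil gate.

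Of 5 genes for assembly and maturation, 2 were at least 2-fold higher in the neutrophil and basophil-mast gates and 1 in the monocyte and dendritic gates. At least 2-fold lower were 1 in the neutrophil gate (Hmox1), 2 in the basophil-mast gate (Clcn3 and Hmox1) and 0 in the other 2. Hvcn1, the proton channel that balances the charge the oxidase moves, was 9.26-fold higher in the neutrophil, 7.67-fold in the monocyte, 4.15-fold in the dendritic and 15.1-fold in the basophil-mast gate. Cybc1, a chaperone of the cytochrome, was within 2-fold in all 4, from 0.989 to 1.53. Prex1, a Rac activator, was at 0.195 in the neutrophil gate and 2.62 in the dendritic gate. Of the kinases known to phosphorylate p47phox, Prkcd was 3.52-fold higher in the monocyte gate and Prkcb 5.63-fold in the neutrophil gate. Prkca was at 0.0380 in the monocyte gate and 0.0336 in the neutrophil gate. Of 6 genes of NADPH supply and peroxide use, 2 were at least 2-fold higher and 1 lower in the neutrophil gate. In the monocyte gate 3 were higher, in the basophil-mast gate 1 and in the dendritic gate 0. Pgd, an enzyme that makes NADPH, was 3.86-fold higher in the neutrophil gate and 3.09-fold in the monocyte gate. G6pdx, of the same group, was at 20.1 CPM in the stem, 18.7 in the neutrophil and 54.4 in the monocyte gate. Mpo, which uses the peroxide formed, was 23.9-fold higher in the neutrophil gate and 8.82-fold in the basophil-mast gate. Of 8 receptors that trigger the burst, 5 had enough UMIs to compare. At least 2-fold higher were 3 in each of the neutrophil, monocyte and dendritic gates and 4 in the basophil-mast gate. There Tlr4 was at least 2-fold lower, at 1.31 against 4.29 CPM in the stem gate. In all cells kept Fpr1 had 1 UMI, Fpr2 had 3 and C5ar1 had 7. Fcgr3 was 42.3-fold higher in the neutrophil, 22.4-fold in the monocyte and 46.3-fold in the basophil-mast gate, and 1.12-fold in the dendritic gate (0.516 to 2.18). The other NADPH oxidases and their organisers were at or near 0. Noxo1 had 114 UMIs and Nox1 had 101 in all cells kept, Noxa1 had 22 and Nox4 had 19, and Nox3, Duox1, Duox2, Duoxa1 and Duoxa2 had 0, which allows up to 0.0198 CPM each.

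As a description over 7 gates with at least 50 cells, the pattern of each subunit was compared with that of 10172 genes by the Pearson correlation of log2(CPM + 10). The 7 points are sums from the same library and share its free RNA. Among the subunits, r was 0.979 for Ncf1 and Ncf4, 0.975 for Cyba and Ncf1 and 0.930 for Cyba and Ncf4, and lower for Cybb, from 0.654 with Cyba to 0.855 with Ncf4. The most similar gene was Mefv, the gene of the inflammasome protein pyrin, for Cybb (r = 0.992), Plxnd1 for Cyba (0.976), Ncf4 for Ncf1 (0.979), Man1c1 for Ncf4 (0.988) and Uggt1 for Rac2 (0.990). Cybb was followed by Nagpa (0.991), Neurl2 (0.970), Lamtor5 (0.965) and Aldh1b1 (0.961), and Plxnd1 stood among the first 5 genes of both Cyba and Ncf1. Correlation takes no account of how far a gene moved. On that log2 scale Cybb spanned 3.29 over the gates, against 2.03 for Mefv, 1.10 for Nagpa and 0.417 for Lamtor5. Cyba spanned 2.76 against 1.30 for Plxnd1, Ncf4 3.09 against 0.959 for Man1c1, and Rac2 2.02 against 0.850 for Uggt1. Ncf1 and Ncf4 were close, at 2.98 and 3.09. Spi1 gave r from 0.715 with Cybb to 0.961 with Rac2.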

How the data were processed

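Sorted Lin- cKit+ cells were processed with the 10x Genomics Chromium 3′ kit v3.1 and counted by the authors with Cell Ranger 6.0.2 against an mm10 reference. The deposited values are raw UMI counts, 32285 genes by 8817 barcodes (167452386 UMIs, 0 barcodes repeated). The sample label describes a bulk poly(A) kit, whereas the matrix and the methods are of droplets, and the methods were followed. From these counts, the study's filter kept barcodes whose UMIs lay between 1000 and 50000, whose genes lay between 1000 and 6500 and whose mitochondrial share was below 7%, which left 7645 cells with 1592 to 49991 UMIs, median 18696. Scrublet (scanpy 1.11.5, expected 6%) called 268 doublets, 3.51%, which were kept in the main values and left out in an alternative. Of cells without a gate, 329 tied, 1131 showed too few markers and 99 were under 5000 UMIs.

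UMIs were summed by gate and divided by the UMIs of the gate (CPM). A fold was called at 2, and a 0 was bounded at 3 UMIs. Intervals came from scipy 1.17.1, and the code was tested on simulated data. Named genes are the 5 subunits and, from the list of 58, up to 3 of the largest and 3 of the smallest folds of each group. Others of that list, and values of a named gene in further gates, were added after their values were seen. The genes and lists were chosen with earlier results of these data known, and the gate rule, the splits of the stem and dendritic gates and the median scaling after the values were seen. Alternatives were other cell filters, gates, clusters, denominators and depths.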

Additional observations from a re-analysis of the deposited data

Results flagged for a closer look

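Of the barcodes left out, 574 held at most 1000 genes, with a median of 1321 UMIs. They are outside every comparison above, and 4 of the 5 subunits exceeded there the level that 3 UMIs would give (3.55 CPM) with an interval clear of it. Cybb stood at 9.48 CPM (4.09 to 18.7, 8 UMIs), Cyba at 41.5 (28.9 to 57.7, 35 UMIs), Ncf1 at 22.5 (13.6 to 35.1, 19 UMIs) and Rac2 at 43.8 (30.9 to 60.4, 37 UMIs). Ncf4 had 7.11 CPM on 6 UMIs. The same barcodes held 339.9 CPM of Elane, near the 337 CPM of the erythroid gate. The source of these UMIs was not tested.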

How the results depend on the processing

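The counts of subunits past 2-fold were 5 (neutrophil), 5 (monocyte), 4 (dendritic) and 5 (basophil-mast over stem) and 1 (neutrophil against monocyte), and stayed within 1.5 times of these under all 10 alternatives. The dendritic count was 5 with the stricter gate, per-cell means, thinned cells or median scaling, and with clusters the monocyte and basophil-mast counts were 4 each. The basophil-mast count of 5 includes Cybb, which was close to the erythroid background there. Of 362 alternative values of member folds, 253 lay within the counting interval, 109 outside it. Among folds of at least 2 either way, 0 of 232 member values and 1 of 908 regulator values passed to the other side of 1. Among smaller folds 2 of 130 and 96 of 1305 did, the 2 being Ncf1 in the neutrophil against the monocyte gate (1.14 under median scaling) and Rac2 in later against earlier monocyte cells (0.999 without mitochondrial, ribosomal protein and haemoglobin genes). The 1 was Irf8, which went in the basophil-mast gate from 2.36-fold to 0.846-fold (0.641 to 1.11) without doublet calls. The cause was not tested. Cybb over the stem gate ranged from 68.0 (clusters) to 159 (doublet calls removed) in the monocyte gate and from 17.0 to 47.1 in the neutrophil gate, and Ncf1 from 4.74 (clusters) to 17.5 (median scaling) in the latter. No paired analysis was possible because there is 1 library. Depth limits Cybb in the stem, dendritic and basophil-mast gates, where 18 to 29 UMIs carry its values.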
